A study of Mus musculus with 8 samples.

Results

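Cadherins are transmembrane adhesion proteins whose repeated extracellular domains bind calcium, and most members studied join neighbouring cells by binding the same or a similar cadherin on the other cell. The family was taken from the deposited table by symbol: Cdh followed by a number without Cdh5, every Pcdh gene, Celsr1 to Celsr3, Fat1 to Fat4, and Dchs1 and Dchs2. These symbols gave 79 of the 12843 rows. There were 2 type I classical cadherins, 9 type II classical cadherins, Cdh13, 14 protocadherin alpha rows, 15 beta rows, 22 gamma rows, 7 non-clustered delta protocadherins, Pcdh12 and Pcdh20, and 7 genes of the Fat, Dachsous and Celsr group. A further 22 family symbols of the RefSeq gene list, Cdh1, Cdh9, Cdh18, Dchs2, Fat2, Pcdh11x and Pcdh19 among them, were not analysed here.

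RNA was sequenced from the lateral ganglionic eminence (LGE), the ventral forebrain swelling that gives rise to striatal projection neurons and olfactory bulb interneurons, of mouse embryos at E12.5. The 4 null-labelled libraries came from embryos carrying the alleles Gsx2EGFP and Gsx2RA together, and the 4 wild-type libraries from embryos labelled wild type. Crosses of Gsx2RA/+ with Gsx2EGFP/+ mice produced the embryos, so both alleles were inherited and not limited to the LGE. Gsx2 encodes a homeobox transcription factor of LGE progenitors, and the comparison asked which RNAs differ in this tissue when the gene is mutated. How many embryos went into a library is not stated, so p-values measure the spread between these libraries, which may be partly technical.

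Type I and type II classical cadherins carry a cytoplasmic tail that binds catenins and through them actin, and different members mark different regions, nuclei and layers of the developing brain. Clustered protocadherins are made from 3 neighbouring gene arrays by choosing among many first exons, which gives neurons surface identities used in self-recognition of their branches. Delta protocadherins act in axon growth and cell sorting. Fat4 and Dchs1 are a receptor and ligand pair, and the Celsr proteins are the multi-pass cadherins of planar cell polarity.

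Null-labelled libraries held 16066587 to 18019231 reads in listed genes and wild-type libraries 16031504 to 17512932. The numbers of the column headers, which are in no label, name the libraries: 5, 6, 11 and 12 are null-labelled and 1, 2, 7 and 8 wild type, and values follow that order. RPKM divides the reads of a gene by its length and by the library size, so that levels of different genes can be set side by side. Fold changes are given as the null-labelled mean of log2(RPKM + 1) less the wild-type mean, ± SE, and understate the change of genes with low RPKM. Adjusted p-values are those of limma over 11395 tested genes, and a gene was called where the value was under 0.05. Gsx2 itself had 55.2 ± 7.11 RPKM in null-labelled and 23.5 ± 2.16 RPKM in wild-type libraries (SD, n = 4 each). No source used here gives the RNA that the alleles still make, so this value does not check the labels, and every direction below refers to libraries as labelled. LGE identity markers, Gsx2 among them, summed to 239 to 316 RPKM in null-labelled and 825 to 983 RPKM in wild-type libraries. The tissue is a mixture of cells, and fewer cells of a type cannot be told apart from less RNA in each.

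RNA of the cadherin family was mostly higher in the null-labelled LGE. The rows of the alpha array, and those of the gamma array, hold nearly equal numbers of reads, as described with the clustered genes, so each array was counted as 1 measurement, which left 45. Of these, 34 had a mean of at least 1 RPKM in either genotype and were tested: 19 were higher, 4 were lower and 11 did not pass. The called share was 67.6% (55.9% higher and 11.8% lower), against 28.5% of all tested genes (13.8% higher and 14.6% lower). Null-labelled libraries lay wholly above the wild-type libraries in 17 measurements and wholly below in 4, where 14.5% and 16.4% of all tested genes did so (30.9% together). The median log2 fold change was 0.24 over the 34 measurements and -0.01 over all tested genes. Cdh12 and Pcdhb3 reached the level needed for testing only in the null-labelled group and Pcdh12 only in the wild-type group. By row, 53 of 68 tested rows were higher and 4 lower, 36 of the higher rows being alpha and gamma rows, and the 11 rows under the level were 10 beta rows and Pcdh20.

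**Figure D1:**
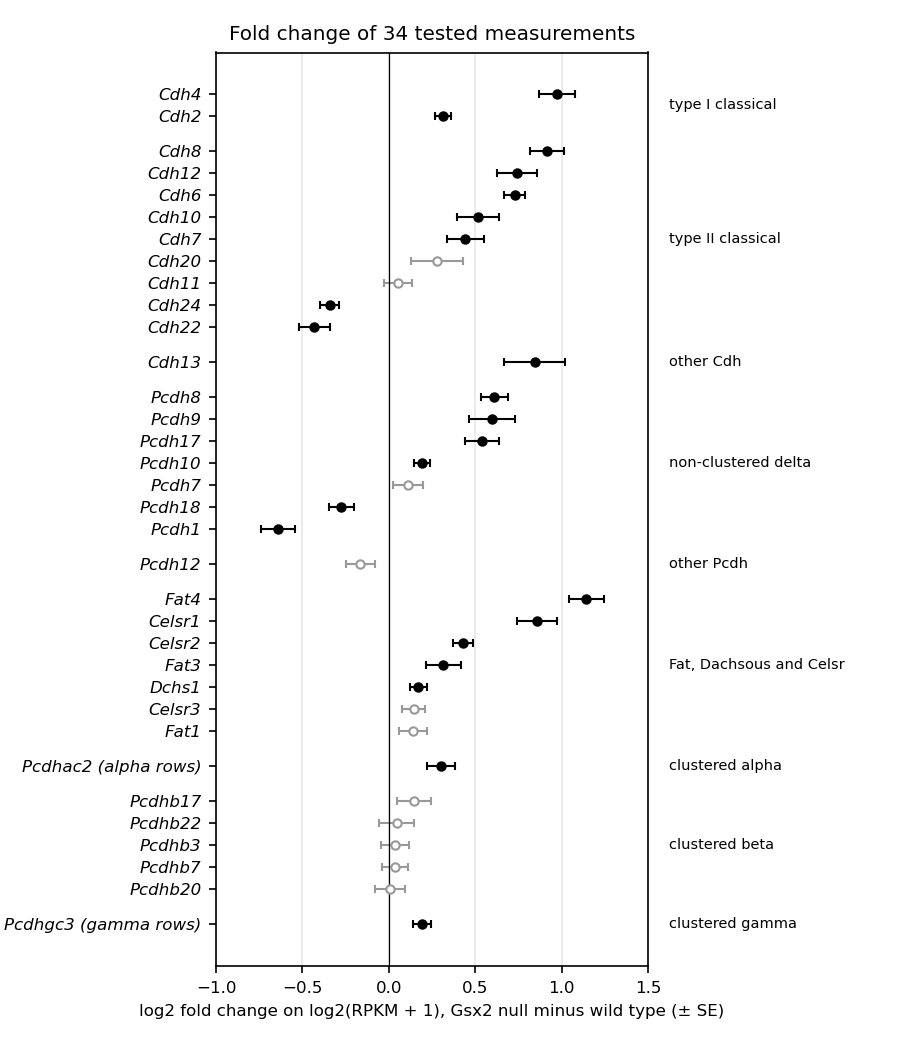
Log2 fold change on the log2(RPKM + 1) scale, Gsx2 null minus wild type, for the 34 tested measurements grouped by class; bars are standard errors, filled points passed an adjusted p of 0.05 and open points did not. Fat4 at 1.14 and Cdh4 at 0.97 lie farthest right, Pcdh1 at -0.64 farthest left, and the 5 beta protocadherins lie between 0.01 and 0.14.

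Both type I cadherins of the table were higher in the null-labelled libraries. Cdh4 (R-cadherin; ENSMUSG00000000305.12, chromosome 2 from 179442431 to 179899373, plus strand in GRCm38) had 18.5, 19.7, 20.8 and 18.1 RPKM in the null-labelled libraries and 9.28, 9.71, 7.30 and 11.3 RPKM in the wild-type libraries. Every null-labelled library was above every wild-type library, and wild-type library 7 was the lowest of all. The means were 19.3 ± 1.20 RPKM in null-labelled and 9.40 ± 1.65 RPKM in wild-type libraries (SD, n = 4 each; log2 fold change 0.97 ± 0.10, adjusted p = 1.58e-04). Cdh2 (N-cadherin), the cadherin of neuroepithelial junctions and the most abundant member of the family in both genotypes, had 82.6, 87.6, 85.1 and 85.0 RPKM in the null-labelled libraries and 70.3, 70.6, 63.9 and 68.5 RPKM in the wild-type libraries. These values again did not overlap, but the difference was smaller, with a ratio of means of 1.25 (log2 fold change 0.31 ± 0.05, adjusted p = 0.00102). Cdh2 made up 47.3% to 48.7% of the summed RPKM of the 11 classical cadherins in null-labelled libraries and 49.0% to 50.4% in wild-type libraries. That sum was 177 ± 3.77 RPKM in null-labelled and 137 ± 7.43 RPKM in wild-type libraries.

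Type II cadherins, which bind in more selective combinations than type I, moved in both directions. Of 9 tested, Cdh6, Cdh7, Cdh8, Cdh10 and Cdh12 were higher, Cdh22 and Cdh24 were lower, and Cdh11 and Cdh20 did not pass. The shares higher and lower were 55.6% and 22.2%, against 13.8% and 14.6% of all tested genes. The share higher includes Cdh12, which reached the level needed for testing only in the null-labelled group. Cdh6 (ENSMUSG00000039385.5, chromosome 15 from 13028701 to 13173675, minus strand) had 18.5, 18.5, 18.9 and 16.8 RPKM in the null-labelled libraries and 10.8, 11.4, 9.49 and 10.5 RPKM in the wild-type libraries. The null-labelled libraries stood together well above the wild-type ones (log2 fold change 0.73 ± 0.06, adjusted p = 3.62e-05), the smallest adjusted p of the family. Cdh8 (ENSMUSG00000036510.17, chromosome 8 from 99024471 to 99416471, minus strand) had 12.95, 14.9, 16.4 and 13.4 RPKM in the null-labelled libraries and 7.59, 8.32, 5.90 and 6.95 RPKM in the wild-type libraries. Its mean in null-labelled libraries was 2.00 times that of wild type (log2 fold change 0.91 ± 0.10, adjusted p = 1.64e-04). Cdh12 was low in all libraries, with 1.52, 1.66, 2.13 and 2.26 RPKM in the null-labelled libraries and 0.840, 0.852, 0.441 and 0.793 RPKM in the wild-type libraries. The lowest null-labelled value lay above the highest wild-type value, and wild-type library 7 was set apart below the other wild-type libraries (log2 fold change 0.74 ± 0.12, adjusted p = 0.00125). Its log2 fold change was 0.49 in libraries 1, 2, 5 and 6 and 0.99 in libraries 7, 8, 11 and 12. Cdh10 had 3.39, 3.23, 3.08 and 2.73 RPKM in the null-labelled libraries and 2.58, 2.00, 1.31 and 1.73 RPKM in the wild-type libraries. The groups did not overlap, and wild-type library 7 was again the lowest (log2 fold change 0.52 ± 0.12, adjusted p = 0.0109). Cdh7 averaged 3.26 ± 0.470 RPKM in null-labelled and 2.14 ± 0.373 RPKM in wild-type libraries, null-labelled library 11 lying within the wild-type range (log2 fold change 0.44 ± 0.11, adjusted p = 0.0116). Within libraries 1, 2, 5 and 6 alone neither Cdh10 nor Cdh7 passed, and over all alternatives their adjusted p ran from 0.00262 to 0.0650 and from 0.00473 to 0.0515.

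Cdh24, the most abundant type II member of the wild-type LGE, had 14.7, 14.7, 12.8 and 14.5 RPKM in the null-labelled libraries and 18.6, 17.9, 18.8 and 17.4 RPKM in the wild-type libraries. All null-labelled libraries lay below the wild-type libraries, null-labelled library 11 farthest (log2 fold change -0.34 ± 0.05, adjusted p = 0.00134). In wild type Cdh24 was at 28.9% to 33.6% of the summed type II RPKM, and in null-labelled libraries at 17.2% to 20.5%, where Cdh6 was the most abundant type II member. Cdh22 had 4.76, 4.11, 5.38 and 5.76 RPKM in the null-labelled libraries and 6.91, 6.84, 7.95 and 6.57 RPKM in the wild-type libraries. The groups did not overlap (log2 fold change -0.43 ± 0.09, adjusted p = 0.00596), and the call was lost within libraries 7, 8, 11 and 12 alone, with a range of the adjusted p over alternatives of 0.00255 to 0.0556. Cdh11, a cadherin of mesenchyme and of forebrain neurons, averaged 10.97 ± 0.452 RPKM in null-labelled and 10.6 ± 1.42 RPKM in wild-type libraries (adjusted p = 0.660). Its null-labelled values of 10.6 to 11.6 RPKM lay inside the wild-type range of 9.16 to 11.99 RPKM, in which libraries 1 and 2 were high and 7 and 8 low. Cdh20 averaged 1.57 ± 0.242 RPKM in null-labelled and 1.16 ± 0.539 RPKM in wild-type libraries (adjusted p = 0.205), with wild-type library 1 above all others. Cdh6, Cdh10 and Cdh12 lie on chromosome 15, where Cdh9 and Cdh18 are also annotated, while Cdh8, Cdh11 and Cdh13 lie on chromosome 8 and Cdh7 and Cdh20 on chromosome 1.

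Cdh13 (T-cadherin) lacks the cytoplasmic tail and is held to the membrane by a lipid anchor. It had 4.56, 4.27, 6.43 and 6.22 RPKM in the null-labelled libraries and 3.34, 2.92, 1.48 and 2.60 RPKM in the wild-type libraries. The groups did not overlap, and null-labelled libraries 11 and 12 were higher than 5 and 6 (log2 fold change 0.84 ± 0.18, adjusted p = 0.00563). The log2 fold change was 0.39 in libraries 1, 2, 5 and 6 and 1.30 in libraries 7, 8, 11 and 12, and the test of the difference between these sets gave an adjusted p of 0.178.

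**Figure D2:**
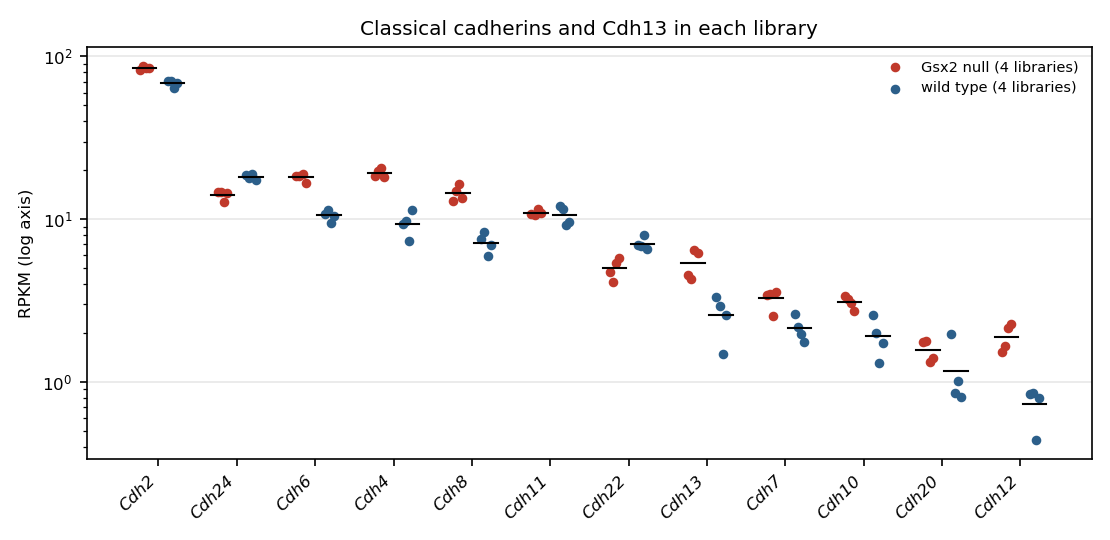
RPKM on a log axis of the 11 classical cadherins and Cdh13 in each library, null-labelled (red, left) and wild type (blue, right) for each gene, with horizontal lines at the group means. Cdh2 stands at 85.1 RPKM in the null-labelled and at 68.3 RPKM in the wild-type libraries, and Cdh24 and Cdh22 are the members whose red points all lie below the blue ones.

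Non-clustered protocadherins of the delta type, each a gene of its own, had 4 of 7 members higher, 2 lower and 1 that did not pass. Their shares higher and lower were 57.1% and 28.6%, against 13.8% and 14.6% of all tested genes. Delta-1 members share an extra conserved cytoplasmic motif and delta-2 members such as Pcdh10 and Pcdh17 bind the actin-regulating WAVE complex. Of the delta-2 members, Pcdh8, Pcdh10 and Pcdh17 were higher and Pcdh18 lower. The 250 bases before the transcript start of Pcdh10, Pcdh17 and Pcdh8 are shown because these are the called members that have 1 RefSeq window each and whose 250 bases before the start lie outside the span of the gene in both RefSeq and GENCODE; the sequences are RefSeq's, build GRCm38.p6, given on the strand of the gene. Capitals mark the letters ATTGG, the reverse complement of CCAAT, a motif picked after the sequences were seen. Among other called members, windows of Cdh8, Pcdh9 and Pcdh18 and a window of Cdh7 also held it on either strand. Windows of Fat4, Cdh6 and Cdh24, among others, held none.
Pcdh10 chr3:45378148-45378397 (+): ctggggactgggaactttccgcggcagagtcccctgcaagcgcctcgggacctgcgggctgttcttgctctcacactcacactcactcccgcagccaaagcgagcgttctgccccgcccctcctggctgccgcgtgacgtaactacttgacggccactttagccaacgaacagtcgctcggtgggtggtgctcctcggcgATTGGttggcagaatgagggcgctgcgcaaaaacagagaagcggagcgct
Pcdh17 chr14:84443313-84443562 (+): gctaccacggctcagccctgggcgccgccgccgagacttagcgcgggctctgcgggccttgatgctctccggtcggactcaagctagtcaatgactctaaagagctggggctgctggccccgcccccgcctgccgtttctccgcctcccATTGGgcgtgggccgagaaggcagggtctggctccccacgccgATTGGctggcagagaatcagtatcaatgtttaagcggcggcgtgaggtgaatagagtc
Pcdh8 chr14:79771313-79771562 (-): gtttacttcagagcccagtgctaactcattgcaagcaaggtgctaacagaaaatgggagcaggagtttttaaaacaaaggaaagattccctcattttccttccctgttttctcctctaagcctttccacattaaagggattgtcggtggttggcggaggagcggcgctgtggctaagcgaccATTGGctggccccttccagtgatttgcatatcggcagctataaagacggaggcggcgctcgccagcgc
On either strand CCAAT was found 1 time in Pcdh10, 2 times in Pcdh17 and 1 time in Pcdh8. Over the 250 bases before the start, 8 of the 18 windows that RefSeq gives for 15 called members (some have several) held it (44.4%). The share over 32851 RefSeq windows was 33.8%. These 8 include the windows of Pcdh10, Pcdh17 and Pcdh8, from which the motif was picked, and overlapping windows of Pcdh9. The shares therefore cannot show whether CCAAT is more common in called members. The homeobox core TAATTA, whose letters read the same on both strands, was in 1 of the 18 windows (5.56%) and in 4.84% of all windows, and the E-box CANNTG, where N is any base, in 8 of 18 (44.4%) and in 66.2%. Such matches describe letters and are not binding sites.

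Pcdh8 (arcadlin, a protocadherin of excitatory synapses) had 10.3, 9.91, 11.9 and 12.48 RPKM in the null-labelled libraries and 7.03, 6.74, 6.31 and 7.61 RPKM in the wild-type libraries. No null-labelled library came down to the wild-type range (log2 fold change 0.61 ± 0.08, adjusted p = 4.47e-04). Pcdh17 had 2.76, 2.95, 2.24 and 2.15 RPKM in the null-labelled libraries and 1.54, 1.57, 1.14 and 1.43 RPKM in the wild-type libraries. Here too the groups were apart, null-labelled libraries 5 and 6 being the highest (log2 fold change 0.54 ± 0.10, adjusted p = 0.00255). Pcdh10, the most abundant member of the class, had 16.9, 17.3, 18.2 and 17.3 RPKM in the null-labelled libraries and 14.5, 15.9, 14.6 and 15.4 RPKM in the wild-type libraries. The groups lay close together without overlapping (log2 fold change 0.19 ± 0.05, adjusted p = 0.0115), and the gene did not pass within libraries 1, 2, 5 and 6 alone (range of the adjusted p over alternatives 0.00687 to 0.161). Pcdh18 had 4.88, 5.57, 5.44 and 4.72 RPKM in the null-labelled libraries and 6.90, 6.88, 6.41 and 5.59 RPKM in the wild-type libraries. Its null-labelled libraries were all below the wild-type ones by a small margin (log2 fold change -0.27 ± 0.07, adjusted p = 0.0206). The Pcdh18 call was lost when null-labelled library 5 or 12 or wild-type library 1 or 2 was left out and within libraries 7, 8, 11 and 12 alone, with a range of 0.00874 to 0.171.

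Of the delta-1 members, Pcdh1 was the only non-clustered protocadherin lower by more than 0.5 on the log2 scale, among 9 in the table of which 8 were tested. It had 4.80, 3.44, 4.32 and 4.65 RPKM in the null-labelled libraries and 6.29, 6.73, 8.15 and 7.87 RPKM in the wild-type libraries. The highest null-labelled value was below the lowest wild-type value (log2 fold change -0.64 ± 0.10, adjusted p = 0.00125). Pcdh9 had 6.08, 5.35, 5.26 and 4.57 RPKM in the null-labelled libraries and 3.33, 4.25, 2.21 and 3.12 RPKM in the wild-type libraries. Wild-type library 7 was the lowest, and the groups did not overlap (log2 fold change 0.60 ± 0.13, adjusted p = 0.00835). Pcdh7 averaged 2.16 ± 0.323 RPKM in null-labelled and 1.92 ± 0.148 RPKM in wild-type libraries and did not pass (adjusted p = 0.375), its null-labelled library 11 lying within the wild-type range. Summed over the 7 delta members, RPKM was 48.0 ± 0.958 in null-labelled and 42.3 ± 1.55 in wild-type libraries. Pcdh12, which is known from endothelium, had 0.707, 0.904, 1.07 and 0.885 RPKM in the null-labelled libraries and 1.18, 1.08, 1.15 and 1.05 RPKM in the wild-type libraries. The groups overlapped, and null-labelled library 5 was the lowest (adjusted p = 0.168). Endothelial markers as a list had 0 of 10 higher and 4 of 10 lower, against 13.8% and 14.6% of all tested genes. These markers summed to 30.4 to 39.6 RPKM in null-labelled and 41.2 to 45.5 RPKM in wild-type libraries. Their part in the Pcdh12 values was not tested. Pcdh20 was under the level for testing, at 0.928, 1.07, 0.668 and 0.730 RPKM in the null-labelled libraries and 0.661, 0.523, 0.475 and 0.632 RPKM in the wild-type libraries. All its null-labelled values lay above the wild-type ones. Pcdh8, Pcdh9, Pcdh17 and Pcdh20 all lie on chromosome 14.

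**Figure D3:**
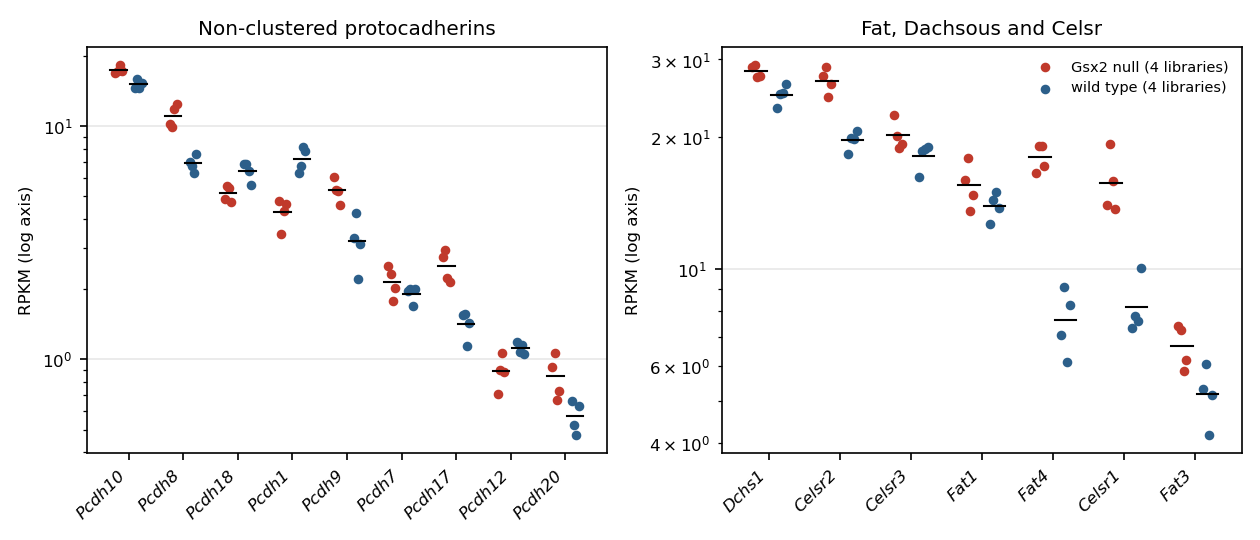
RPKM on log axes of the 9 non-clustered protocadherins and of the 7 Fat, Dachsous and Celsr genes in each library, null-labelled in red on the left and wild type in blue on the right of each pair, with lines at the group means. For Fat4 the red points lie between 16.5 and 19.0 RPKM and the blue points between 6.12 and 9.10 RPKM, and for Pcdh1 the red points lie below the blue ones.

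In the group of very large cadherins 5 of 7 members were higher (71.4%) and 0 lower, against 13.8% and 14.6% of all tested genes. All 7 log2 fold changes were positive. Fat4 (ENSMUSG00000046743.6, chromosome 3 from 38886940 to 39011985, plus strand), the receptor that binds Dchs1 and whose loss is known to disturb cortical development, had 16.5, 19.0, 19.0 and 17.2 RPKM in the null-labelled libraries and 7.07, 9.10, 6.12 and 8.29 RPKM in the wild-type libraries. The mean in null-labelled libraries was 2.35 times that in wild type (log2 fold change 1.14 ± 0.10, adjusted p = 5.00e-05), and the groups were far apart. On the log2(RPKM + 1) scale this was the largest difference of the 34 tested measurements, while Cdh12, at low RPKM, had a larger ratio of means (2.59). Dchs1, its ligand, had 28.9, 29.1, 27.3 and 27.5 RPKM in the null-labelled libraries and 23.2, 25.1, 25.2 and 26.3 RPKM in the wild-type libraries. These groups were separate but close (log2 fold change 0.17 ± 0.05, adjusted p = 0.0244), and the call was lost without null-labelled library 5 or 6, without wild-type library 1, 2 or 7, and within libraries 7, 8, 11 and 12 alone (range 0.0237 to 0.209). Fat3 had 7.39, 7.27, 5.86 and 6.20 RPKM in the null-labelled libraries and 5.33, 6.07, 4.19 and 5.17 RPKM in the wild-type libraries. Its groups overlapped, null-labelled library 11 lying below wild-type library 2 (log2 fold change 0.31 ± 0.10, adjusted p = 0.0406). Its call was lost in 6 of the 8 fits without 1 library and within each set of 4 libraries (range 0.00669 to 0.106). Fat1 averaged 15.5 ± 1.85 RPKM in null-labelled and 13.9 ± 0.999 RPKM in wild-type libraries and did not pass (adjusted p = 0.234).

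Of the Celsr genes, Celsr1, which is known from progenitor zones, had 14.0, 19.2, 15.8 and 13.7 RPKM in the null-labelled libraries and 7.32, 7.81, 7.59 and 10.03 RPKM in the wild-type libraries. All null-labelled libraries were above all wild-type libraries, with library 6 highest among the null-labelled and library 8 highest among the wild type (log2 fold change 0.86 ± 0.12, adjusted p = 5.45e-04). Celsr2, expressed in progenitors and in neurons, had 27.5, 28.9, 24.6 and 26.4 RPKM in the null-labelled libraries and 18.2, 19.9, 19.8 and 20.6 RPKM in the wild-type libraries. It too was higher in 4 of 4 null-labelled libraries without overlap (log2 fold change 0.43 ± 0.06, adjusted p = 5.45e-04). Celsr3, the member of postmitotic neurons that is needed for axon tracts, had 22.4, 20.1, 18.9 and 19.2 RPKM in the null-labelled libraries and 16.2, 18.6, 18.8 and 18.9 RPKM in the wild-type libraries. Its groups touched, null-labelled library 11 lying at the level of wild-type library 8, and it did not pass (adjusted p = 0.140). The 7 genes summed to 131 ± 7.85 RPKM in null-labelled and 97.6 ± 5.74 RPKM in wild-type libraries, and Dchs1 was the most abundant in both genotypes.

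The clustered protocadherins lie on chromosome 18, where the beta genes have mostly an exon of their own while alpha and gamma genes join their own first exon to constant exons shared by the whole array. How the authors assigned reads of the constant exons is not stated, but the rows of an array held nearly equal numbers of recovered reads. Alpha rows held 482 to 905 reads per library, and the lowest row, Pcdha1, held 92.1% of the reads of the second-highest row and 81.6% of those of the highest. Gamma rows held 3873 to 7196 reads, and its lowest row, Pcdhgb8, held 91.1% of the second-highest and 72.4% of the highest row. In GENCODE the exon bases common to all rows were 2860 for alpha, over 13 rows that matched by symbol, and 2116 for gamma, over 22. Rows of an array were therefore not taken as separate measurements, and each array is described through its most abundant row.

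Both arrays were slightly higher in the null-labelled libraries and the beta genes were not called. Pcdhac2, the leading alpha row, had 7.20, 6.97, 7.12 and 7.14 RPKM in the null-labelled libraries and 6.39, 6.07, 4.59 and 5.36 RPKM in the wild-type libraries. The null-labelled values were nearly equal and above the more scattered wild-type values (log2 fold change 0.30 ± 0.08, adjusted p = 0.0192). All 14 alpha rows passed, with log2 fold changes of 0.25 to 0.30 and adjusted p-values of 0.0192 to 0.0380. Pcdhgc3, the leading gamma row and after Cdh2 the most abundant row of the family, had 59.5, 57.7, 65.5 and 64.0 RPKM in the null-labelled libraries and 54.3, 55.7, 52.1 and 53.4 RPKM in the wild-type libraries. Null-labelled libraries 11 and 12 were higher than 5 and 6, and library 6 was close to the highest wild-type library (log2 fold change 0.19 ± 0.05, adjusted p = 0.0199). All 22 gamma rows passed, with log2 fold changes of 0.19 to 0.22 and adjusted p-values of 0.0123 to 0.0211. These calls depended on the libraries: within libraries 1, 2, 5 and 6 alone 0 alpha and 0 gamma rows passed in limma (0 and 0 at an unadjusted p under 0.05; 1 and 0 with voom), and within 7, 8, 11 and 12 alone 14 and 22 did. The log2 fold change of Pcdhac2 was 0.16 in the lower-numbered and 0.45 in the higher-numbered set, and that of Pcdhgc3 0.09 and 0.29. Without wild-type library 8, 0 alpha rows passed, without null-labelled library 5 or 11 only 1, without null-labelled library 12 or wild-type library 7 only 2, and without null-labelled library 6, 10. Gamma fell to 5 rows without wild-type library 7 and to 10 without null-labelled library 12.

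If shared exons count alike in every row, the reads that a row held beyond the lowest row of its array lie outside them. For Pcdhgc3 these were 27.6% of the row, at 105 ± 3.28 per 1000000 reads in listed genes in null-labelled and 93.8 ± 2.25 in wild-type libraries, without overlap. Pcdhga11 had 28.4 ± 1.33 per 1000000 reads in null-labelled and 22.5 ± 1.77 in wild-type libraries, and Pcdhgb7 had 21.4 ± 1.53 in null-labelled and 16.2 ± 2.66 in wild-type libraries, again without overlap. In the alpha array the C-type gene Pcdhac2 had 9.74 ± 0.812 per 1000000 reads in null-labelled and 7.14 ± 1.33 in wild-type libraries, an excess that was 18.4% of the row. Pcdha12 had 3.83 ± 0.359 per 1000000 reads in null-labelled and 2.59 ± 0.362 in wild-type libraries. Pcdhac1 had 1.71 ± 0.417 in null-labelled and 2.19 ± 0.448 in wild-type libraries, with overlapping groups. Over all rows other than the lowest, null-labelled libraries lay wholly above wild type in 5 of 21 gamma rows and 3 of 13 alpha rows. The groups overlapped in the other 16 and 10. By RPKM, null-labelled libraries lay wholly above wild type in 14.5% of all tested genes and wholly below in 16.4%. The ratio of means ran from 0.863 to 1.58 in gamma and from 0.780 to 1.66 in alpha rows, with 3 rows under 1 in each array. The rows at these extremes held few excess reads per library. Pcdhgc5 held 4 to 25, Pcdhga1 4 to 41, Pcdhac1 21 to 45 and Pcdha7 8 to 39. Pcdhgb6, the fourth-largest gamma excess, overlapped. No test was made of these excess reads, which in Pcdhgc3, Pcdhga11, Pcdhgb7 and Pcdha12 can include reads of genes annotated on the opposite strand.

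Beta rows shared no exon bases with other members in GENCODE, except Pcdhb21 and Pcdhb22 with 455 bases each, but beta coding sequences are alike, so that reads could be lost or split between them. Of 15 rows 5 were tested and 0 passed in limma (0 at an unadjusted p under 0.05, 0 with voom and 0 in the authors' deposited table), with adjusted p-values of 0.307 to 0.968. Pcdhb17, the most abundant, had 2.44, 1.81, 2.84 and 2.35 RPKM in the null-labelled libraries and 2.22, 2.05, 1.78 and 2.07 RPKM in the wild-type libraries. The groups overlapped, and null-labelled library 6 was nearly the lowest of all. Pcdhb17 had a log2 fold change of 0.14 and a ratio of means of 1.17, where the ratio of Pcdhgc3 was 1.15. Pcdhb7, Pcdhb20, Pcdhb22 and Pcdhb3 had log2 fold changes of 0.04, 0.01, 0.05 and 0.04. The 15 rows summed to 13.7 ± 1.76 RPKM in null-labelled and 13.04 ± 0.756 RPKM in wild-type libraries.

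**Figure D4:**
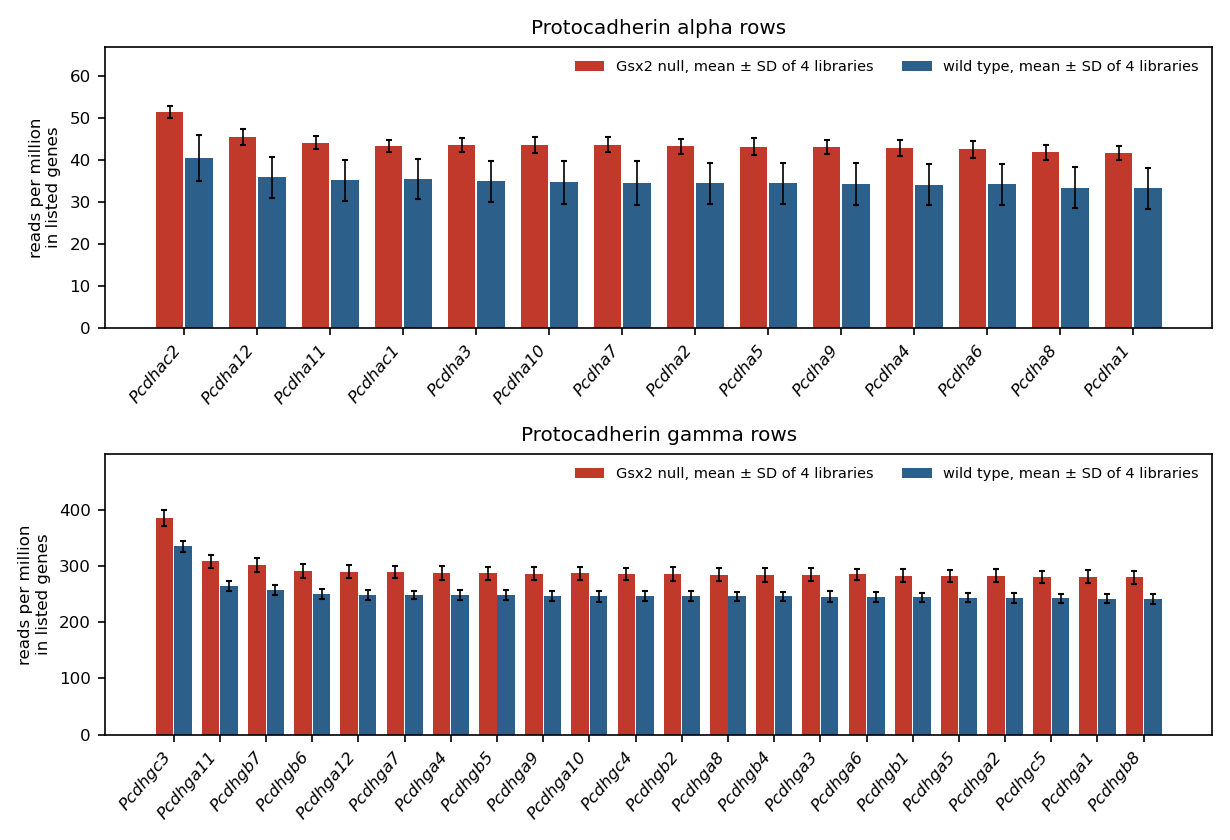
Reads per 1000000 reads in listed genes, not scaled to length, in each protocadherin alpha row (top) and gamma row (bottom), as mean and SD of 4 null-labelled (red, left) and 4 wild-type (blue, right) libraries. Bars within an array are nearly level, Pcdhac2 and Pcdhgc3 stand above the others, and red bars are higher than blue bars in every row.

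Of 16 tested catenin and adherens junction genes 6 were higher (37.5%) and 2 lower, against 13.8% and 14.6% of all tested genes. Ctnnd2, delta-catenin of neurons, averaged 35.2 ± 1.40 RPKM in null-labelled and 27.1 ± 0.867 RPKM in wild-type libraries (log2 fold change 0.37 ± 0.05, adjusted p = 3.46e-04), and Jup, Nectin1, Nectin3, Ctnnd1 and Afdn were also higher, with log2 fold changes of 0.42, 0.34, 0.28, 0.13 and 0.16. Pkp4 (-0.24) and the junction scaffold Tjp1 (-0.19) were lower. Calls of Ctnnd1 and Afdn were each lost in at least 6 of the 8 fits without 1 library (ranges of the adjusted p 0.0370 to 0.204 and 0.0401 to 0.154), that of Ctnnd1 also under quantile and median-of-ratios scaling and with voom, and that of Tjp1 in 4 (0.0161 to 0.109). Within libraries 1, 2, 5 and 6 alone Jup and Nectin3 did not pass (7.20e-04 to 0.0643 and 0.00303 to 0.0623 over alternatives), and Ctnnd1, Afdn and Tjp1 passed in neither set of 4 libraries. Beta-catenin, Ctnnb1, which links classical cadherins to alpha-catenin, averaged 367 ± 28.9 RPKM in null-labelled and 389 ± 10.9 RPKM in wild-type libraries and did not pass (adjusted p = 0.368). The median of the list was 0.03, against -0.01 over all tested genes.

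Planar polarity and Fat-Dachsous partners had 4 of 15 tested genes higher (26.7%) and 2 lower (13.3%), with a median of 0.11. Vangl2, a core polarity protein that acts with the Celsr proteins, averaged 56.4 ± 2.15 RPKM in null-labelled and 39.0 ± 2.10 RPKM in wild-type libraries (log2 fold change 0.52 ± 0.05, adjusted p = 9.43e-05). Fjx1, whose fly counterpart Four-jointed phosphorylates Fat and Dachsous cadherin domains, averaged 25.8 ± 1.88 RPKM in null-labelled and 16.1 ± 2.10 RPKM in wild-type libraries (log2 fold change 0.66 ± 0.09, adjusted p = 5.71e-04), and the groups of both genes were separate. Prickle2 (0.54) and Dvl3 (0.25) were higher and Scrib (-0.21) and Lats2 (-0.24) lower, of which Prickle2, Scrib and Lats2 did not pass within libraries 1, 2, 5 and 6 alone and Lats2 also within 7, 8, 11 and 12 alone (highest adjusted p 0.0639, 0.0699 and 0.128). Of 16 tested genes listed as regulators and effectors of protocadherins 2 were higher and 4 lower, against 13.8% and 14.6% of all tested genes. The median was -0.07 in the list and -0.01 over all tested genes. Ctcf, the insulator protein that governs first-exon choice in the arrays, averaged 51.7 ± 2.05 RPKM in null-labelled and 60.2 ± 1.16 RPKM in wild-type libraries (log2 fold change -0.22 ± 0.04, adjusted p = 0.00492), and the cohesin subunit Rad21 (-0.20), the silencing factor Smchd1 (-0.22) and the DNA methyltransferase Dnmt3b (-0.23) were lower too. Cyfip2, a WAVE complex subunit, averaged 51.9 ± 5.51 RPKM in null-labelled and 32.0 ± 3.83 RPKM in wild-type libraries (log2 fold change 0.68 ± 0.10, adjusted p = 6.97e-04). Dlk2 was also higher (0.41), but no source used here ties this gene of the list to protocadherins. Calls of Dlk2 and Dnmt3b were each lost in 7 of the 8 fits without 1 library, with ranges of 0.0302 to 0.146 and 0.00807 to 0.242, and that of Dlk2 also with a pseudocount of 0.1, with no filter and under quantile scaling; neither passed in either set of 4 libraries. Smchd1 did not pass within libraries 1, 2, 5 and 6 alone and Rad21 not within 7, 8, 11 and 12 alone (highest adjusted p 0.0648 and 0.0599). Among 4 tested cadherin-related genes outside the family, Clstn1 (0.29), Clstn3 (0.50) and Cdhr1 (0.91) were higher. Clstn1 did not pass within libraries 1, 2, 5 and 6 alone (highest adjusted p 0.0724). Cdhr1 averaged 1.60 ± 0.808 RPKM in null-labelled and 0.361 ± 0.318 RPKM in wild-type libraries, with overlapping groups. It reached the level needed for testing only in the null-labelled group.

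Markers of other cells and regions moved in the same comparison, in which 13.8% of all tested genes were higher and 14.6% lower. Pallial markers had 15 of 16 tested genes higher and 0 lower and summed to 750 to 824 RPKM in null-labelled and 145 to 323 RPKM in wild-type libraries. Neuron markers had 7 of 9 higher and 0 lower, at 1169 to 1378 RPKM in null-labelled and 976 to 1147 RPKM in wild-type libraries. LGE identity markers had 1 of 15 higher, which was Gsx2 itself, and 13 lower. Progenitor markers had 3 of 10 higher and 5 lower, at 1607 to 2005 RPKM in null-labelled and 1726 to 1837 RPKM in wild-type libraries. Of the pericyte, mesenchyme, medial ganglionic eminence and choroid plexus lists 0 of 4, 0 of 4, 0 of 3 and 0 of 1 tested genes were higher and 2, 1, 1 and 1 were lower, while blood and microglia had 0 calls among 6 and 5 genes in limma (0 at an unadjusted p under 0.05 and 0 with voom). The epithelial list was not analysed here. Among wild-type libraries, library 7 had the lowest pallial sum, and it also had the lowest wild-type value in 14 of the 19 measurements called higher and the highest in 3 of the 4 called lower. Without it 16 measurements were higher and 4 lower. Lowest and highest wild-type values were not counted by library over all called genes, so this place of library 7 is not shown to be particular to the family. The part of pallial, neuron, progenitor and LGE markers in the family's values was not tested.

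The labels give no batch. Column numbers fall into a lower set (1, 2, 5 and 6) and a higher set (7, 8, 11 and 12), each with 2 libraries of each genotype. The family had 13 measurements higher and 4 lower within the lower set and 18 higher and 2 lower within the higher set. The difference between the sets passed in limma for 0 of 68 tested rows and for 2 of 11395 genes; at an unadjusted p under 0.05 it did for 42 rows, or 8 of 34 measurements with each array counted once, and for 19.1% of all genes. By the authors' deposited table, an FDR under 0.05 went with a positive log2 fold change in 20 of the 45 measurements and with a negative one in 4. All 23 measurements called here were among them in the same direction, and the 1 further call was Pcdh20, with a log2 fold change of 0.58 and an FDR of 0.0193 in the authors' deposited table.

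Annotated antisense transcripts overlap exons of Fat4, Pcdh8, Pcdh10, Dchs1, Fat1, Pcdh7 and Cdh8. In the arrays they overlap exons of Pcdhgc3, Pcdhga11, Pcdhgb7, Pcdhga12, Pcdhga7, Pcdha12 and Pcdha11, rows whose excess reads did not overlap between genotypes. They also overlap exons of Pcdhga10, Pcdhga8, Pcdhga1, Pcdha4 and Pcdha6, rows whose excess reads did overlap between genotypes. The libraries were stranded, but no source used here states the strand setting of the counting, so reads from these genes and from their antisense partners cannot be told apart.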

How the data were processed

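PolyA RNA of 4 null-labelled and 4 wild-type LGE libraries was sequenced as stranded single-end reads of 51 bases after 9 PCR cycles, per the labels' protocols. The submitters' processing notes name STAR, featureCounts, edgeR and the build mm10, without versions; no source used here names the annotation or the strand setting of the counting. The authors deposited 1 table with RPKM per library and, per the file headers, their log2 fold change, average log2 CPM, p-value and FDR; the deposited log2 fold change is positive where null-labelled libraries are higher.

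Columns were assigned to genotypes by name only (Germline was read as null, after the series title), and 0 columns were left out. The RPKM plus a pseudocount of 1 were put on a log2 scale and fitted with limma 3.58.1 in R 4.3.3, genotype as the only term, with an intensity trend, two-sided, and adjusted by Benjamini-Hochberg over the 11395 genes with a mean of at least 1 RPKM in either genotype; 1448 were not tested. Whole reads were recovered from the RPKM steps for 100% of genes (tolerance 1e-06 of a read, wider in proportion for genes with many reads; a common factor was restored for 156 genes from the authors' average log2 CPM); they gave depths, reads per row and the voom alternative, which called 3671 genes against 3242. Replicate libraries differed by more than sampling noise (chi-square per degree of freedom 3.66 to 12.6). The procedures were tested on simulated data. Gene positions are from GENCODE M21 (GRCm38), to which 12593 listed genes matched.

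The family, its classes and the gene lists were chosen with earlier results of these data known. Every member past the threshold is named; values per library were meant for up to 6 members of each class with the smallest adjusted p and for its most abundant member, and of partner lists up to 8 genes are named. Alpha and gamma rows are described through 1 row each, and of the beta rows values per library are given for 1; Pcdh7, Cdh11, Cdh20 and Fat1, which did not pass, are named as well.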

Additional observations from a re-analysis of the deposited data

Results flagged for a closer look

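Of 90 groups of 4 libraries examined, 5 held a library far from the other 3 relative to the group's range, and about 1 group in 20 is expected to by chance. In null-labelled library 11 Cdh24 was at 12.8 RPKM, with the other null-labelled libraries at 14.5 to 14.7. In the same library Cdh7 was at 2.56 RPKM, with the others at 3.42 to 3.57. In wild-type library 7 Cdh12 was at 0.441 RPKM, with the other wild-type libraries at 0.793 to 0.852, and Pcdh7 was at 1.69 RPKM, with the others at 1.97 to 2.00. In wild-type library 1 Celsr3 was at 16.2 RPKM, with the others at 18.6 to 18.9.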

How the results depend on the processing

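Under 19 alternatives (pseudocounts of 0.1 and 5, no filter and a filter at 5 RPKM, quantile and median-of-ratios scaling, a robust fit, voom on recovered reads, a term for the number set, each set alone, and each library left out), 0 genes changed sign against a call; 17 named genes that are not called, 7 of them family members (Cdh11, Fat1, Pcdhb3, Pcdhb7, Pcdhb17, Pcdhb20 and Pcdhb22), took both signs. Of the gene results 2006 kept their side of the threshold, 216 lost a call and 18 gained one. The count of higher measurements was 19 and of lower 4, and leaving out 1 library gave 16 to 18 and 3 to 4. Within libraries 7, 8, 11 and 12 alone 2 were lower, and within 1, 2, 5 and 6 alone 0 alpha and 0 gamma rows were higher, against 14 and 22 in all libraries. Leaving out 1 library gave 0 to 14 alpha rows, 5 to 22 gamma rows and 67 to 72 calls over all lists, against 76. With the filter at 5 RPKM 15 measurements were higher, since fewer were tested. Of 23 called measurements 18 kept the call whichever library was left out; Pcdhac2, Pcdhgc3, Dchs1, Fat3 and Pcdh18 did not. Gained calls in the family were Cdh11 within libraries 7, 8, 11 and 12 and Cdh20 without wild-type library 1. The cause was not tested. Scalings moved the median of all genes by at most 0.01 (log2). No paired analysis was possible because no label ties the column numbers to the replicate numbers of the titles. The beta rows held 20 to 218 reads per library, and the part of depth in their lack of calls was not tested.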
